A study of Mus musculus with 35 samples.

Results

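The chromatin of c34 oocyte-like cells was divided by 3 histone marks into 8 mark combinations. The cells descend from H18, a line of wild-type mouse embryonic stem cells with a Prdm1-mVenus and a Dppa3-ECFP reporter, and c34 is the latest of 3 cultured stages of the study. Histone H3 trimethylated at lysine 4 (H3K4me3, K4 below), at lysine 27 (H3K27me3, K27) and at lysine 36 (H3K36me3, K36) was mapped by CATCH-seq. This assay precipitates unfixed chromatin, after digestion by micrococcal nuclease, from few cells. For c34 cells the authors deposited 1 peak list per mark, and the 3 lists held 47639 of the 167982 peaks of all 13 lists. Each 1 kb bin of autosomes 1 to 19 took the combination of marks whose peaks lay over it, and 2460743 bins (2460.74 Mb) were classified in this way. The bins of the other stages with 3 lists were classified likewise and serve for comparison: c13 oocyte-like cells of the same line, oocytes of wild-type mice with the same reporters at the embryonic stage E18.5, and germinal vesicle (GV) oocytes, the fully grown stage before meiotic maturation, of wild-type BDF1 mice.

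Each c34 list stands for 2 libraries, and there were no replicate lists at any stage. The lists of the other stages stand for 2 libraries each, except c13 H3K4me3 with 4 and GV H3K4me3 and GV H3K27me3 with 1 each. Differences between combinations or stages could therefore not be set against replicate spread, no test was run, and ranges over the 19 autosomes describe variation along the genome alone. Read depth was unknown. Of the autosomes, K4 peaks covered 253.06 Mb in 35321 peaks with a median width of 5 kb, K27 peaks 908.14 Mb in 5254 peaks and K36 peaks 898.1 Mb in 5441 peaks, the last 2 lists with a median width of 100 kb. K4 edges lay on a grid of 1 kb and those of the other marks on a grid of 10 kb, so a K27 or K36 call at a single gene covers its surroundings too.

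In most cells K4 lies at the promoters of genes that are active or held ready, and at CpG islands. K27 is written by Polycomb repressive complex 2 and covers silent developmental genes, where it often lies together with K4 on so-called bivalent promoters. K36 is placed behind elongating RNA polymerase II and in growing oocytes guides DNA methylation to transcribed regions, while oocytes also build broad domains of K4 and of K27 away from promoters. A pattern of K4 at the start and K36 along the body is the usual sign of a transcribed gene, and K27 and K36 are largely kept apart because K36 on a nucleosome hinders Polycomb repressive complex 2.

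6 promoters show what the combinations look like at the level of single genes, each the first gene of the lists described below with that combination at its start and with its listed start within 1 kb of the annotated end. The second condition, set after the values were seen, passed over Btg4 for K4+K27 and Mei1 and Spata22 for K27 only. The 250 bases before the listed gene start are given 5′ to 3′ on the gene's strand, from RefSeq on GRCm38.p6, in lower case with each CpG dinucleotide, the methylated motif of mammalian DNA, in capitals. Zp3 encodes a zona pellucida glycoprotein (K4+K36, chr5:135979855-135980104, + strand, 5 CpG). Stra8 is the retinoic acid target that starts meiosis (K4+K27, chr6:34920698-34920947, + strand, 5 CpG). Sohlh1 is a transcription factor of early folliculogenesis (K4+K27+K36, chr2:25847249-25847498, - strand, 11 CpG). Mei4 acts in the formation of meiotic DNA breaks (K4 only, chr9:81863420-81863669, + strand, 12 CpG). Piwil4 is a piRNA-binding protein of the male germline (K27 only, chr9:14740673-14740922, - strand, 10 CpG). Nanos3 is needed for survival of primordial germ cells (K36 only, chr8:84176553-84176802, - strand, 3 CpG).
Zp3: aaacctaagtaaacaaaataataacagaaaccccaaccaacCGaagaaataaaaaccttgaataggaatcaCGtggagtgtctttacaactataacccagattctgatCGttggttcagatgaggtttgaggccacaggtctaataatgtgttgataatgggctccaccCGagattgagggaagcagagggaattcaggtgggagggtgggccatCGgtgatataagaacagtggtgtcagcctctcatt
Stra8: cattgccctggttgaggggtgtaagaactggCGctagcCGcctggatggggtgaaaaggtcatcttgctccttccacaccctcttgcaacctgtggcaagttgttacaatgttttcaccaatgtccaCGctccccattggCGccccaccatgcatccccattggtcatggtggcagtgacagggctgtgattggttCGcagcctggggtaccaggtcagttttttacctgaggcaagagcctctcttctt
Sohlh1: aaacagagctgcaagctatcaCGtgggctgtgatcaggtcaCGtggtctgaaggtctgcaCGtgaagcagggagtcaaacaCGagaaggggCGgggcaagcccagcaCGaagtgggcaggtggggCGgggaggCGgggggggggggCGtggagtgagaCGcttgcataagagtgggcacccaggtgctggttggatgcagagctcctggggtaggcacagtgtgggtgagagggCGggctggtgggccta
Mei4: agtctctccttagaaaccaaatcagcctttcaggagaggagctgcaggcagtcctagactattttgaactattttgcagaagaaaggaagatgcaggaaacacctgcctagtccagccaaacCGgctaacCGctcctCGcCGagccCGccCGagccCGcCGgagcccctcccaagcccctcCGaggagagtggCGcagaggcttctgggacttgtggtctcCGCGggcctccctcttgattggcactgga
Piwil4: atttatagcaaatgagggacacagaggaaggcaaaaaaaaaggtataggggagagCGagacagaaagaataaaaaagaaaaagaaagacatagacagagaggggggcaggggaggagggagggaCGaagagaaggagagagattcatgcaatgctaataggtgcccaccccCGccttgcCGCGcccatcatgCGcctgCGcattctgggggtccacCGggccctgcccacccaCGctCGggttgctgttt
Nanos3: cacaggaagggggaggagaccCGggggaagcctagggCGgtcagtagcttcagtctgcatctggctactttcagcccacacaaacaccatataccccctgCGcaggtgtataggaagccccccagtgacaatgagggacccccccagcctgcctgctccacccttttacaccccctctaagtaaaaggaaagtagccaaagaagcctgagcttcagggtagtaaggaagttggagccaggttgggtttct

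Markers of the labelled cell type carried the combination of transcribed genes. Of 8 oocyte markers with a listed start, 7 (Zp3, Nobox, Figla, Oosp1, Nlrp5, Kit and Ddx4) had K4+K36, against 38.2% of all 16456 genes with a listed start, and the eighth, Dazl, had K4+K27. Of 11 markers of ovarian somatic cells, 10 had K27 with or without another mark, against 38.6% of all genes, and 0 had K4+K36. All 8 markers of pluripotent cells had K27, among them Pou5f1 with all 3 marks. These markers are a part of longer lists described below, which were less uniform. There, 9 of 13 pluripotency and early germ cell genes and 12 of 14 genes of ovarian somatic cells held K27. Klf2, Tfcp2l1 and Lin28a had K4+K36, and Prdm1 and Inhba K4 only. Peaks report on chromatin and not on RNA, so these values do not measure expression.

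No mark at all was the most frequent state of the c34 autosomes, with 800.757 Mb or 32.5% of bins. K27 only followed with 659.914 Mb (26.8%) and K36 only with 576.201 Mb (23.4%). K27+K36 took 170.811 Mb (6.94%), K4+K36 123.309 Mb (5.01%), K4 only 52.336 Mb (2.13%), K4+K27 49.636 Mb (2.02%) and all 3 marks 27.779 Mb (1.13%). Of the unmarked length, 284.662 Mb lay in no peak of any of the 13 lists, and this includes the stretches without sequence at chromosome starts. Without this length, 23.7% of bins were unmarked, against 30.3% in K27 only and 26.5% in K36 only. The first rank of unmarked bins thus rests on bins in no list.

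The shares differed along the genome. Unmarked bins ran between 18.1% on chromosome 11 and 43.5% on chromosome 3, and K27 only between 20.4% on chromosome 12 and 34.1% on chromosome 9. K4+K36 was lowest on chromosome 3 (3.03%) and highest on chromosome 19 (7.28%). Chromosome 19 also held the highest shares of K4 only (3.15%), K4+K27 (3.88%) and all 3 marks (1.97%), and chromosome 3 the lowest shares of K36 only (17.8%) and K27+K36 (4.27%). The ranges of the rare and the frequent combinations did not meet: no autosome had more than 3.88% of its bins in K4+K27 or fewer than 17.8% in K36 only.

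**Figure D1:**
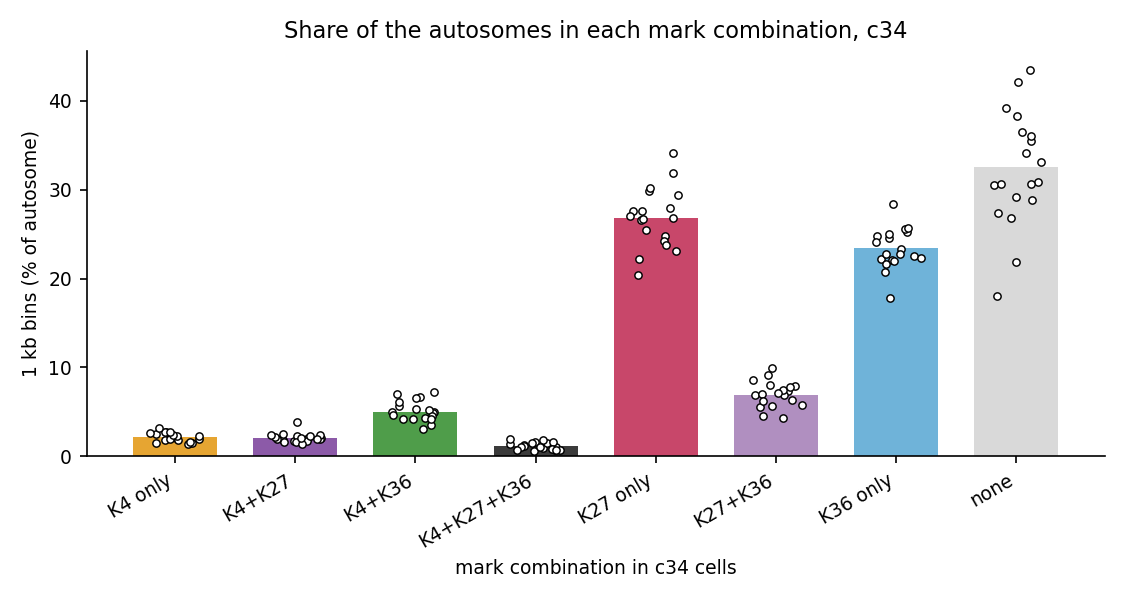
Share of 1 kb bins (y axis, % of an autosome) in each of the 8 mark combinations of c34 cells (x axis). Bars give the share over all 19 autosomes and circles the single autosomes. Unmarked bins, K27 only and K36 only make up most of every autosome, with 32.5%, 26.8% and 23.4% overall.

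Of the bins with a mark, 22.4% held 2 or 3 marks. K4 lay with K36 more than with K27: 59.7% of K4 bins held K36, against 36.5% of all bins, and 30.6% held K27, against 36.9% of all bins. The share of K4 bins with K36 exceeded the K36 share of the same chromosome on 19 of 19 autosomes and ran between 46.8% and 70.4%. The share of K4 bins with K27 exceeded the K27 share of the chromosome on 0 of 19, with a lowest value of 26.9% on chromosome 12. The broad marks avoided each other, since 21.9% of K27 bins held K36, against 36.5% of all bins, and this share was below that of the chromosome on 19 of 19 autosomes.

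Neighbours along the chromosome followed from these overlaps and largely from peak width. K4 peaks had a median width of 5 kb, against 100 kb for the other marks, so a K4 run mostly ends inside the same broad peak. Runs of K4+K36 bins bordered on K36 only at 90.8% of their sides, runs of K4+K27 on K27 only at 89.8%, runs of K4 only on unmarked bins at 88.0% and runs with all 3 marks on K27+K36 at 83.5%. The remaining sides of K4 only runs were more often K4+K36 (7.01% of sides) than K4+K27 (2.92%).

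Of the 35321 K4 peaks, 14571 (41.3%) touched K36 peaks alone, 7787 (22.0%) K27 peaks alone, 5214 (14.8%) both and 7749 (21.9%) neither. Peaks that touched both had a median width of 7 kb, those with K36 alone 6 kb, those with K27 alone 5 kb and those with neither 4 kb. On the 18 autosomes with listed gene starts, a start lay within 1 kb of 36.7% of the K4 peaks with both, of 34.5% with K36 alone, of 20.2% with K27 alone and of 10.2% with neither. K4 peaks outside both broad domains were therefore the narrowest in the median and the fewest at annotated starts, although the widest c34 peak of all, 96 kb, was among them. Among broad peaks, 70.4% of K27 peaks and 79.7% of K36 peaks held a K4 peak, and those that did were wider (medians 130 and 130 kb) than those without one (50 and 40 kb). A wider peak touches other peaks and gene starts more readily by its length alone. The differences between these groups of K4 and of broad peaks are therefore partly set by the grouping, and the size of this part was not tested.

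K27 and K36 peaks shared 3679 stretches with a median of 40 kb. Of these, 1992 (54.1%) lay between a K27 stretch on one side and a K36 stretch on the other, so that 2 neighbouring domains overlapped there. A further 734 (20.0%) lay inside K27 domains and 795 (21.6%) inside K36 domains, and 158 (4.29%) had unmarked bins on at least 1 side. Stretches of 20 kb or less, at most 2 steps of the grid, were 1319 (35.9%) in number and 18.86 Mb of the 198.59 Mb shared. The longest shared stretch measured 700 kb and lay inside a K27 domain.

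Gene starts were concentrated where K4 lay. All 3 marks held 53.2 listed starts of protein-coding genes per Mb, K4+K36 52.0, K4+K27 35.7 and K4 only 22.7, against 6.94 per Mb over all bins. The combinations without K4 held 4.54 per Mb (K27+K36), 3.68 (K27 only), 2.58 (none) and 1.68 (K36 only). By chromosome, K4+K36 ran between 28.5 starts per Mb on chromosome 15 and 77.6 on chromosome 7, and K36 only between 0.533 on chromosome 12 and 3.84 on chromosome 7. Protein-coding genes covered 68.6% of K36 only bins, 63.5% of K4+K36, 56.9% of all 3 marks and 54.3% of K27+K36, against 40.7% of all bins. In K4+K27 they covered 38.7%, in K27 only 33.9%, in K4 only 25.5% and in unmarked bins 20.2%. K36 only was thus the combination with the fewest starts and the most gene body, and K4 only held more starts per Mb than all bins (22.7 against 6.94) with a smaller share of its bins in protein-coding genes (25.5% against 40.7%).

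Promoter sequence, which took no part in the classification, followed the presence of K4. The median CpG count of the 250 bases before the start was 17 for K4+K36, 15 for K4+K27 and for all 3 marks, and 14 for K4 only, against 10 over all 16456 genes. It was 3 for K27 only and for K27+K36, 2 for K36 only and 1 for unmarked starts. At least 10 CpG stood before 78.0% of K4+K36 starts, 71.6% of those with all 3 marks, 70.4% of K4+K27 and 63.6% of K4 only, and before 2.96% of unmarked starts. Zp3 and Stra8, with 5 CpG each, lie below the lower quartiles of their combinations (10 and 8), while Piwil4, with 10, lies above the upper quartile of K27 only (7). The 4 combinations with K4 overlapped widely in CpG count, so the count did not separate K4+K27 from K4+K36.

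5 short motifs were searched on both strands, none of which contains another. The TATA box core TATAAA stood before 34.7% of unmarked starts, 23.2% of K36 only, 17.9% of K27 only and 13.9% of K27+K36, and before 5.46% of K4+K36 starts, against 12.5% of all promoters. GGGCGG, the core of a GC box, ran the other way, with 61.7% for all 3 marks, 60.5% for K4+K36, 59.1% for K4+K27 and 51.9% for K4 only, 4.15% for unmarked starts and 43.6% over all promoters. CCAAT varied little, between 29.9% and 40.7% (all promoters 36.3%). The E-box CACGTG stood before 8.96% of K4+K36 and 1.66% of unmarked starts (all promoters 6.73%), and TAATTG, a core bound by homeodomain proteins, before 4.28% of K4+K36 and 15.4% of unmarked starts (all promoters 6.52%). The median G+C content of the windows was 60.0% for K4+K36 and 38.4% for unmarked starts, and its part in the shares of GC-rich and AT-rich motifs was not tested. Of the promoters printed above, Zp3 and Sohlh1 hold CACGTG, Mei4, Sohlh1 and Nanos3 hold GGGCGG, and Mei4 and Stra8 hold CCAAT. Piwil4 holds TATAAA on the opposite strand, at the end of the window far from the start.

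**Figure D2:**
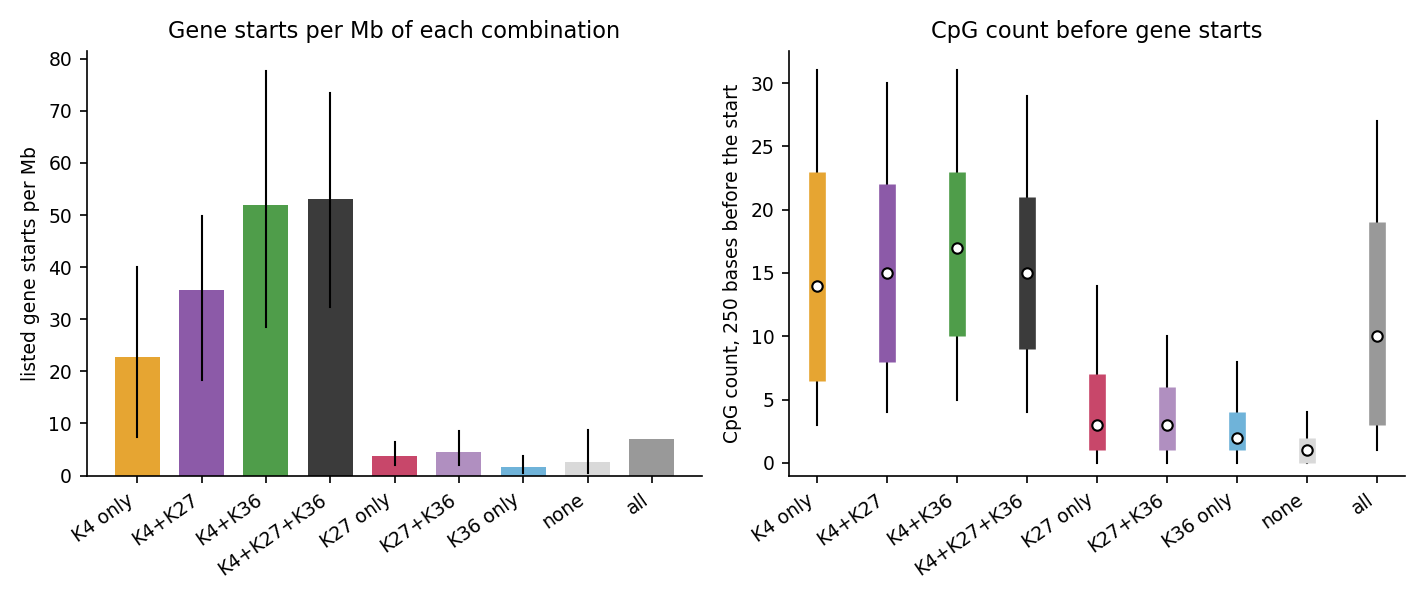
Left, listed gene starts per Mb of each combination in c34 cells, with lines from the lowest to the highest of the 18 autosomes with listed starts. Right, CpG count in the 250 bases before the start by combination at the start, with the median as a circle, the quartiles as a thick bar and the 10th to 90th percentiles as a line. The bars and medians of combinations with K4 stand above those without it, though the ranges partly overlap, and the last column of each panel shows all bins or all genes.

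A gene was assigned by its start when a peak lay within 1 kb of the listed start. K4+K36 was the state of 6280 of 16456 starts, K27 only of 2257, none of 1926, K4+K27 of 1715, all 3 marks of 1645, K4 only of 1043, K36 only of 858 and K27+K36 of 732. By the combination that held most bins of the annotated gene, 7610 of all 20661 genes were K36 only (36.8%), 4109 K27 only (19.9%), 3067 unmarked (14.8%), 2383 K27+K36 (11.5%) and 2063 K4+K36 (9.98%), while all 3 marks held 647 bodies (3.13%), K4+K27 547 (2.65%) and K4 only 235 (1.14%). Without peaks narrower than the median of their own list, the starts with K4+K27 fell to 848 and those with all 3 marks to 627, while K36 only took 2461 and none 3205. With peaks allowed up to 5 kb away, all 3 marks took 2520 starts. Of the 179 listed starts of the gene lists below, 14 lay more than 1 kb inside the annotated gene, those of Prdm1, Rec114, Tet3, Btg4, Mei1, Stag3, Inhba, Dnmt3a, Nkx2-5, Cpeb1, Spata22, Kmt2d, Msh4 and Khdc3, and their calls describe that inner position.

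Start and body calls come from the same peaks and are not independent. Over all 20661 genes, bodies were K36 only in 36.8%, K27 only in 19.9%, unmarked in 14.8% and K27+K36 in 11.5%. K4+K36 held 9.98%, all 3 marks 3.13%, K4+K27 2.65% and K4 only 1.14%. Genes that started in K4+K36 had K36 only bodies in 72.0% of cases and K4+K36 bodies in 25.0%. Genes that started in K4+K27 had K27 only bodies in 52.4% and K4+K27 bodies in 22.3%, but 7.46% had K36 only bodies. Genes that started with all 3 marks had K27+K36 bodies in 52.3%, bodies with all 3 marks in 26.5% and K36 only bodies in 15.2%. Genes that started in K4 only had K36 only bodies in 42.7%, near the 36.8% of all genes. They had unmarked bodies in 33.9% and K4 only bodies in 16.3%. Where the start had no K4, start and body mostly had the same combination: 96.4% of unmarked, 91.7% of K27 only, 89.0% of K36 only and 83.6% of K27+K36 starts. Such agreement is largely set in advance, since K27 and K36 peaks had a median width of 100 kb. Genes with unmarked starts had a median length of 3.36 kb, and those with K36 only starts 8.87 kb.

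The marks around the starts differed between the groups. Values at the start itself follow from the grouping, and K27 and K36 peaks are wide (median 100 kb), so values 10 kb away partly follow too. Over all 16456 genes, K36 lay over 52.8% 10 kb upstream and 61.1% 10 kb downstream. K27 lay over 40.2% and 36.4% at these distances, and K4 over 17.4% 10 kb downstream. At K4+K36 starts, K36 lay over 88.2% of genes 10 kb upstream and 97.8% of genes 10 kb downstream, and K4 over 98.8% at the start and 24.6% 10 kb downstream. At K4 only starts, K36 was on 0% of genes at the start, as the grouping requires. It was on 6.23% 10 kb upstream and 43.3% 10 kb downstream, so it lay more often downstream than upstream. K27 before these starts was on 21.4% of genes 10 kb upstream and 4.70% 10 kb downstream. At K4+K27 starts, K27 lay over 90.2% 10 kb upstream and 89.7% 10 kb downstream, nearly the same on both sides. With all 3 marks at the start, K27 lay over 85.2% upstream and 80.3% downstream and K36 over 81.0% upstream and 94.6% downstream at the same distances.

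**Figure D3:**
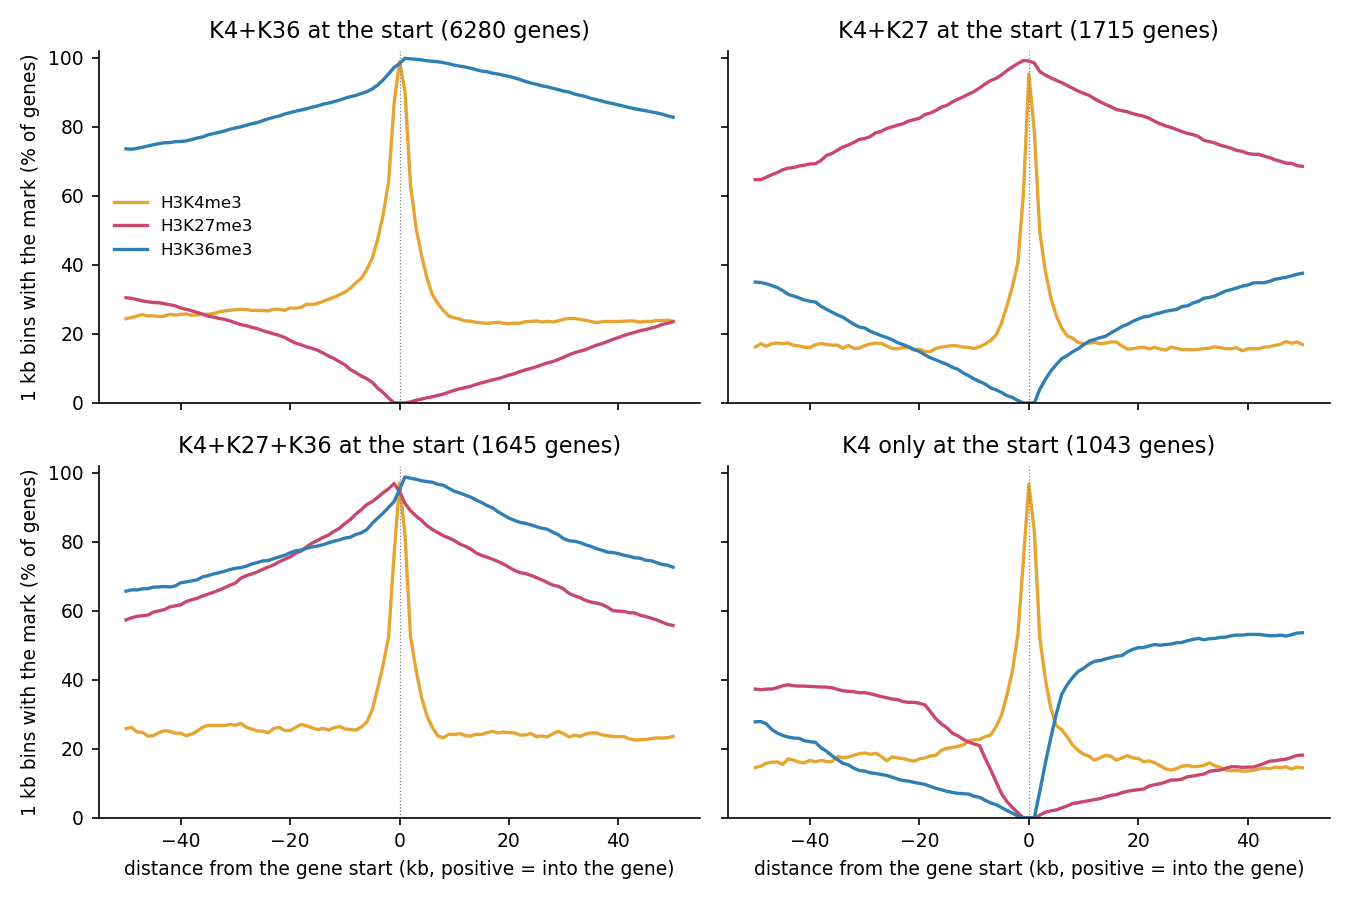
Share of genes with each mark (y axis, % of genes) in 1 kb bins from 50 kb before to 50 kb after the listed start (x axis, kb along the gene's strand), for the 4 combinations with K4 at the start in c34 cells. The marks at the start itself are set by the grouping. K36 lies more often downstream than upstream of K4 only starts (43.3% against 6.23% at 10 kb, all genes 61.1% and 52.8%). K27 is nearly symmetrical around K4+K27 starts.

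Gene length differed between the combinations. Genes that started in K4 only had the longest median length, 32.2 kb, followed by K4+K27 (25.8 kb) and K4+K36 (22.2 kb), against 17.3 kb for all 16456 genes. Genes with unmarked starts were shortest, with 3.36 kb. Sorted by body, the order was other: K36 only bodies had a median of 30.8 kb and K27 only 20.6 kb, while bodies mostly in K4 only measured 3.03 kb. This second order is largely set by the call. K4 peaks had a median width of 5 kb, against 100 kb for the other marks, so K4 can fill most bins of short genes mainly.

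K4+K36, the combination of transcribed promoters, marked the oocyte programme. Of 21 oocyte factors with a listed start, 16 had it, against 38.2% of all genes, and the remaining 5 had K4 with K27 or with both marks. All 21 held K4, against 64.9% of all genes. The transcription factor genes Nobox and Figla lay in K36 peaks of 400 kb and 670 kb with K4 peaks of 14 kb and 5 kb at the start. Zp3 had a K4 peak of 81 kb inside a K36 peak of 670 kb. Oosp1, Nlrp5, Ooep, Tle6 and Khdc3 were also K4+K36, and the last 4 encode members of the subcortical maternal complex. K4 peaks at these 5 starts measured between 12 kb (Khdc3) and 46 kb (Tle6). Of all 29 oocyte factors, 25 had bodies mostly in K36 only or K4+K36, against 46.8% of all genes.

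Genes of chromatin and DNA methylation had K4+K36 at 18 of 24 starts, against 38.2% of all genes. They included Dnmt1, which maintains DNA methylation, with a K4 peak of 37 kb, and Dnmt3l, the cofactor that oocytes need to methylate DNA, with a K4 peak of 6 kb in a K36 peak of 560 kb. Dnmt3b, Uhrf1, Tet2, Tet3, Ezh1 and Eed were marked alike. Housekeeping genes had K4+K36 at 14 of 18 starts, against 38.2% of all genes, among them Gapdh, Tbp, Ppia, B2m, Tubb5, Sdha, Rps18 and Psmb4. The share in oocyte factors (76.2%) was thus close to that in housekeeping genes (77.8%) and in chromatin genes (75.0%), and K4+K36 did not set oocyte genes apart from genes that all cells use.

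Meiosis genes were divided. Of 25, 12 (48.0%) had K4+K36, against 38.2% of all genes, among them Sycp2 and Sycp3, which encode axis proteins of the synaptonemal complex, the cohesin gene Stag3, the Hormad genes Hormad1 and Hormad2, the recombinase gene Dmc1, Syce2 and Bhmg1 (Meiosin), the partner of Stra8. Another 6 had K4+K27, against 10.4% of all genes: Stra8 itself, Sycp1, Syce1, Tex12, Rec114 and Prdm9, which sets the sites of recombination. Stra8 had a K4 peak of 4 kb within a K27 peak of 160 kb and no K36 over its body, and Sycp1 a K4 peak of 2 kb within a K27 peak of 50 kb. K27 covered 100% of the Stra8 body but 5.88% of the Sycp1 body, which was mostly unmarked (91.6% of bins). Mei1 and Spata22 started in K27 only, against 13.7% of all genes, Rec8 and Syce3 in K27+K36, against 4.45%, Smc1b in all 3 marks, against 10.0%, and Mei4 and Msh5 in K4 only, against 6.34%. At Mei1 the listed start lies inside the annotated gene, whose body held K4 over 14.0% of its length.

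Germline and piRNA pathway genes had K4+K36 at 10 of 19 starts (52.6%, against 38.2% of all genes), among them the RNA helicase gene Ddx4, Piwil1, Tdrd1, Tdrd5, Tdrkh, Asz1, Pld6 and Ddx25. Mov10l1, Tdrd9 and Tex19.1 had all 3 marks. Dazl, which encodes an RNA-binding protein of germ cells, had K4+K27, with a K4 peak of 9 kb inside a K27 peak of 1300 kb. Piwil4 was K27 only, Tdrd7 K27+K36 and Mael K4 only, and Nanos3 and Taf7l2 were K36 only, against 5.21% of all genes. Of 22 bodies, 18 lay mostly in K36 only or K4+K36, against 46.8% of all genes.

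K4+K27, the pair of marks of bivalent promoters, marked developmental regulators, though peak lists do not show whether both lie on the same nucleosomes. Of 20 with a listed start, 15 had it, against 10.4% of all genes, 3 (T, Gsc and Lhx2) had all 3 marks and 2 (Pax7 and Otx2) K27 only. All 20 held K27, against 38.6%. Foxa2 and Eomes, regulators of endoderm and mesoderm, had K4 peaks of 10 kb and 15 kb within K27 peaks of 420 kb and 140 kb. Hand2, Isl1 and Nkx2-5, regulators of heart development, Pax6, En1 and Olig2, regulators of eye and brain development, were marked alike. Over the 15 genes the K27 peaks measured between 100 kb (Nkx2-5) and 800 kb (Nkx6-1). Of all 33, 28 had bodies mostly in K27 only or K4+K27, against 22.5% of all genes.

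Hox genes, which set position along the body axis, had K4+K27 at 21 of 22 listed starts, against 10.4% of all genes, with Hoxa2 in K27 only. The second longest K4+K27 run of the genome was 54 kb of the Hoxa cluster (chr6:52200001-52254000) over 7 protein-coding genes, Hoxa3 to Hoxa10 first among them. Against the same 10.4%, forkhead genes had K4+K27 at 12 of 26 starts, Sox genes at 6 of 13 and T-box genes at 5 of 10. Foxa1, Foxa2, Foxb2 and Foxc1 were the first of these forkhead genes in order of symbol. Forkhead genes had K4+K36 at 7 starts (26.9%, against 38.2% of all genes), among them Foxo3, a regulator of primordial follicle activation.

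Genes of ovarian somatic cells also carried K4+K27, at 7 of 14 starts, against 10.4% of all genes. They were Foxl2, the granulosa cell regulator, Cyp11a1, which begins steroid synthesis, Kitl, the ligand of the oocyte receptor Kit, Wnt4, Nr2f2, Tcf21 and Pdgfra. The receptor genes Fshr and Lhcgr and the aromatase gene Cyp19a1 were K27 only, within K27 peaks of 710, 710 and 150 kb. Inha had all 3 marks, Amhr2 K27+K36, Inhba K4 only and Upk3b K36 only. Kit, the receptor in the oocyte, had K4+K36 at its start while Kitl, its ligand from somatic cells, had K4+K27, with K4 peaks of 20 kb and 12 kb. K36 covered 100% of the Kit body, but K27 covered 5.81% of the Kitl body, which was mostly unmarked (73.3% of bins).

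Pluripotency and early germ cell genes were spread over 5 combinations. Nanog, Esrrb, Tdgf1, Utf1 and Fgf4 were K27 only, 5 of 13 against 13.7% of all genes, and their K27 peaks measured between 180 kb (Esrrb) and 780 kb (Fgf4). Sox2, Klf4 and Zfp42 were K4+K27, the first 2 within K27 peaks over 1 Mb wide (1170 and 1130 kb). Klf2, Tfcp2l1 and Lin28a were K4+K36, Pou5f1 had all 3 marks, and Prdm1, the regulator of germ cell specification whose reporter the line carries, was K4 only. The listed start of Prdm1 is 69.8 kb inside the annotated gene (chr10:44437174-44528558, - strand) and lay in the longest K4 only run of the autosomes, 96 kb (chr10:44408001-44504000), which ends before the annotated 5′ end. K4 covered 85.9% of the gene body, and K27 and K36 0%. Whether the reporter construct affects this locus was not tested.

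Imprinted genes fell by mechanism. Of 11 genes whose imprinting depends on maternal K27, 10 held K27, against 38.6% of all genes. Sfmbt2, Jade1, Runx1, Otog and Mbnl2 were K27 only, Gab1, Etv6, Inhbb and Rbms1 K4+K27, and Tle3 had all 3 marks. Slc38a4 was K36 only at its listed start, although K27 covered 74.2% of its body. Of 14 genes imprinted through DNA methylation set in the oocyte, 12 held K36, against 57.8% of all genes. Peg3, Mest, Grb10, Igf2r, Zrsr1, Inpp5f and Nnat were K4+K36, H13 had all 3 marks, and Plagl1, Mcts2, Nap1l5 and Zdbf2 were K36 only, 4 of 14 against 5.21% of all genes. Ndn was K27 only and Snrpn unmarked at its listed start, against 11.7% of all genes. Both lists are defined by the chromatin of the maternal genome, so their marks are no independent result.

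**Figure D4:**
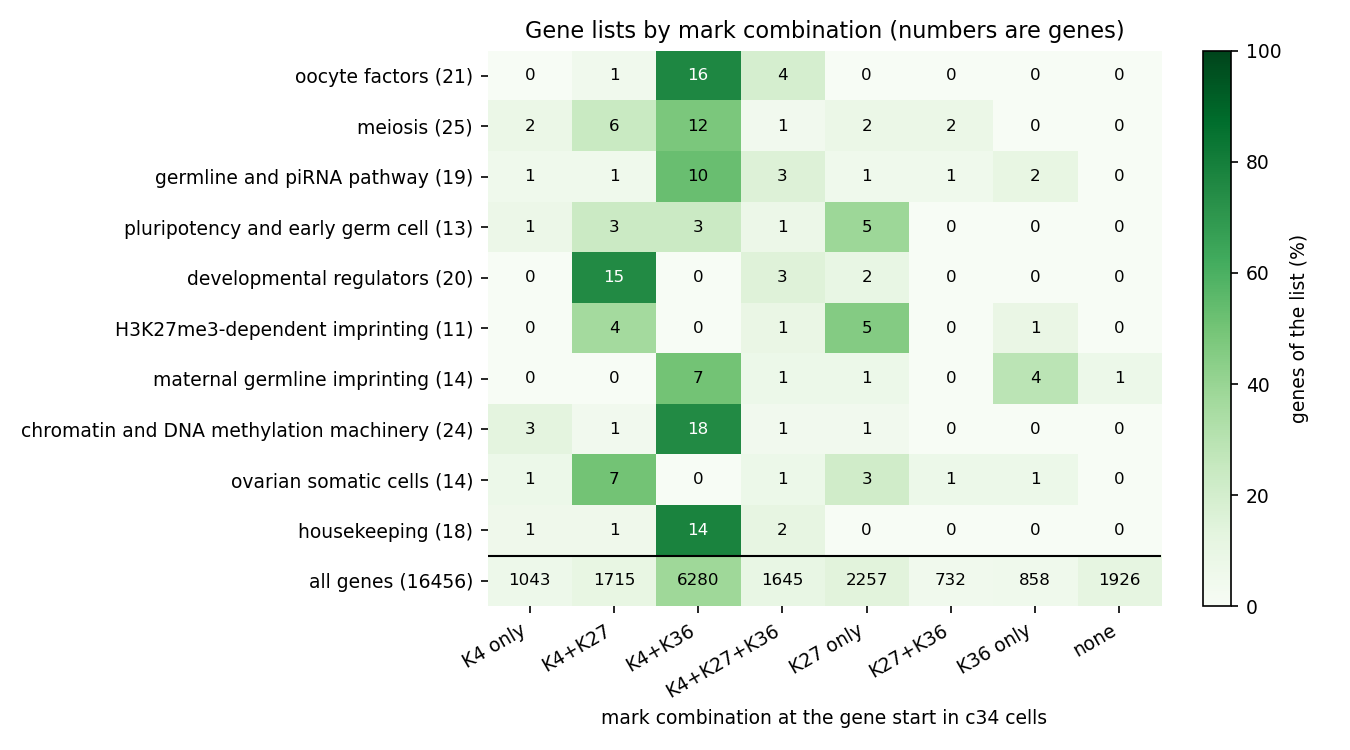
Number of genes of each list (rows, with the number that had a listed start) in each mark combination at the start in c34 cells (columns). Colour gives the share of the list in %, and the lowest row gives all 16456 genes. Oocyte factors, chromatin genes and housekeeping genes concentrate in K4+K36 (16 of 21, 18 of 24 and 14 of 18) and developmental regulators in K4+K27 (15 of 20).

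Gene families gave further forms. K4+K36, with 38.2% of all genes, held 43 of 57 ribosomal protein genes, 24 of 31 proteasome subunit genes, 43 of 66 mitochondrial ribosomal protein genes and 163 of 301 genes named Zfp, which encode zinc finger proteins. Histone genes differed from these families: 36 of 62 had K4 only, against 6.34% of all genes, among them H1f1, H1f3, H1f6 and H2ac1, and 12 had K4+K36, among them the oocyte linker histone gene H1f8. Keratin genes were K27 only at 24 of 35 starts, against 13.7% of all genes, and K4+K27 at 10, against 10.4%. Keratin associated protein genes were K27 only at 30 of 51. Olfactory receptor genes were unmarked at 596 of 934 starts, against 11.7% of all genes, vomeronasal receptor genes at 257 of 320 and defensin genes at 26 of 45. Cytochrome P450 genes were spread over K27 only (19 of 77 or 24.7%, against 13.7% of all genes), K36 only (23.4%, against 5.21%), K27+K36 (19.5%, against 4.45%) and none (10 of 77, against 11.7%). Potassium channel genes were K27 only at 20 of 56 starts, against 13.7% of all genes, and K4+K27 at 13, against 10.4%. Members of a family often lie in 1 cluster and share a domain, so their calls are not independent.

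The longest runs of each combination are given next. Whether the lists were set against input was not known, so high signal unrelated to a mark cannot be told apart in a single run. The longest K4+K36 runs were 83 kb over Sfi1 (chr11:3123001-3206000), a centrosome protein gene wholly covered by both marks, and 81 kb over Ywhag, Ssc4d and Zp3 (chr5:135903001-135984000). K4+K27 reached 59 kb over Unc13a, Jak3, Insl3 and B3gnt3 (chr8:71641001-71700000). All 3 marks reached 65 kb over Mroh2a, Hjurp and Trpm8 (chr1:88246001-88311000). K27 only reached 1531 kb at Arpp21 (chr9:111919001-113450000) and 1117 kb at Gpc6 and Dct (chr14:116970001-118087000). K27+K36 reached 405 kb on chromosome 12 over 0 protein-coding genes and 325 kb within Msi2, an RNA-binding protein gene. K36 only reached 701 kb (chr12:114250001-114951000) over 75 annotated genes, 41 of them V segments, and 489 kb at Sgcd, a sarcoglycan gene. Unmarked runs of up to 3383 kb lay at the very start of chromosomes 16, 15 and 19.

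Whole genes of great length lay in each of the broad states. The longest genes with at least 90% of the body in K27 only were Asic2 (1088 kb), Gpc6 (1055 kb), Sox5 (954 kb), Tenm4 and Alk, an acid-sensing channel, a glypican, a transcription factor, a teneurin and a receptor kinase. In K36 only they included Celf2 (857 kb), Cacna2d3, Ptprm and Lama2, and in K27+K36 they were Kif26b (404 kb), Msi2, Pknox2, Stx8 and Osbpl6. The longest unmarked genes were Lrp1b (2058 kb), Robo2, Lrrc4c, Cntn5 and Csmd3, most of which are known from neurons. In K4+K36 the longest were Sfi1 (71.5 kb), C130026I21Rik, Jag1, Cnn3 and Bpgm, and in K4+K27 Gata3 (30.9 kb), Bcl6, Rsph1, Ifngr2 and Lif.

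Set against the other stages, c34 cells had little overlap of the broad marks compared with c13 cells. K27+K36 took 170.811 Mb in c34, against 610.443 Mb in c13, 260.653 Mb in E18.5 and 82.452 Mb in GV. All 3 marks took 27.779 Mb in c34, against 174.787 Mb in c13, 9.097 Mb in E18.5 and 20.018 Mb in GV oocytes. Both combinations were longer in c34 than in c13 on 0 of 19 autosomes. Of K27 bins, 21.9% held K36 in c34, against 75.3% in c13, 27.6% in E18.5 and 14.7% in GV oocytes, although K27 peaks covered 908.14 Mb and 1043.48 Mb in c34 and c13. The c13 K36 list had a median width of 310 kb and a longest peak of 20860 kb, against 100 kb and 2740 kb in c34, and the part of this difference in the overlap was not tested.

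K4 peaks covered less in c34 cells than in GV oocytes, 253.06 Mb against 612.056 Mb, and K4 only differed most, with 52.336 Mb in c34 against 356.8 Mb in GV oocytes. K4 only was longer in c34 than in GV oocytes on 0 of 19 autosomes. K4+K36 took 123.309 Mb in c34, 46.596 Mb in c13, 16.106 Mb in E18.5 and 155.983 Mb in GV oocytes. K36 only took 576.201 Mb in c34, 276.094 Mb in c13, 300.734 Mb in E18.5 and 689.467 Mb in GV oocytes. K27 only took 659.914 Mb in c34, 242.814 Mb in c13, 669.593 Mb in E18.5 and 515.135 Mb in GV oocytes. With 1 list per stage and unknown depth and thresholds, a longer list cannot be told apart from a deeper library.

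Bins of c34 cells kept their combination in GV oocytes to unlike degrees. K36 only was shared for 83.0% of its c34 length, against 28.0% of all bins that were K36 only in GV oocytes. The same pair of values was 71.1% against 14.5% for K4 only, 52.9% against 6.34% for K4+K36 and 52.7% against 20.9% for K27 only. It was 26.3% against 3.35% for K27+K36, 24.5% against 3.22% for K4+K27 and 14.6% against 0.813% for all 3 marks, so these combinations had the lowest shares of their own length and were also the rarest in GV oocytes. Of the K4+K27 length, 52.1% was K4 only in GV oocytes, and of the K27+K36 length 34.3% was K36 only, and 13.7% K27 only. Of the length with all 3 marks, 39.1% was K4+K36 in GV oocytes. Of the K4+K36 length, 33.3% was K36 only in GV oocytes, and of the unmarked length 55.3% was unmarked there, against 22.8% of all bins. GV oocytes had K27 on 28.3% of all bins, against 36.9% in c34, so fewer bins with K27 are a trait of the whole GV list.

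At gene starts the shares were as follows. Of the 6280 K4+K36 starts of c34, 83.5% had the same combination in GV oocytes, where it held 40.0% of all starts. Of K4 only starts, 75.7% were the same in GV oocytes (19.7% of all starts), of K36 only starts 69.1% (7.07%), of unmarked starts 62.5% (8.96%), of K27 only starts 49.7% (9.94%) and of K27+K36 starts 27.6% (2.04%). K4+K27 starts were split between the same combination (39.6%, against 8.51% of all starts) and K4 only (40.7%). Starts with all 3 marks were K4+K36 in GV oocytes in 46.6% of cases and the same in 23.0%, against 3.76% of all starts. In c13 cells, 78.8% of the starts with all 3 marks in c34 had the same combination, where it was the most frequent state, with 38.7% of all starts.

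Oocyte factors had K4+K36 at 16 of 21 starts in c34, 1 in c13, 0 in E18.5 and 14 in GV oocytes, where all genes had 17.4% in c13 and 7.92% in E18.5. Among the c34 members, Ooep, Kit and Ybx2 were K4 only in GV oocytes, and Nobox, Figla and Zp3 had K4+K36 in both. In c13, Figla and Zp3 had all 3 marks and Nobox K4 only, against 7.49% of all starts, and in E18.5 oocytes Figla was K4 only, Zp3 K27 only and Nobox had all 3 marks. Meiosis genes had all 3 marks at 1 of 25 starts in c34, 21 in c13, 1 in E18.5 and 3 in GV oocytes, against 38.7% of all starts in c13 and 2.86% in E18.5. K4 only held 2 meiosis starts in c34, 12 in E18.5 (37.1% of all starts) and 9 in GV oocytes, where Sycp1, Rec114, Prdm9, Sycp2, Hormad1, Hormad2 and Meioc had it beside Mei4 and Msh5. Stra8 was K4+K27 in c34 and in GV oocytes, had all 3 marks in c13 and was K36 only in E18.5 oocytes, against 4.14% of all starts. Among c13 starts of the listed genes, Oosp1 and Btg4 were K27 only, against 2.66% of all starts, Padi6 and H1f8 were K27+K36, against 9.08%, and 0 oocyte factors were K36 only, against 2.97%.

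Developmental regulators had K4+K27 at 15 of 20 starts in c34, 6 in c13, 13 in E18.5 and 9 in GV oocytes. This combination held 6.89% of all starts in c13 and 12.7% in E18.5. The 6 members that differed in GV oocytes were Hand2, Olig2, Neurog1 and Hoxb1, which were K4 only, and Isl1 and En1, which were K27 only. In c13, 13 of the 20 had all 3 marks. Foxa2, Eomes, Pax6, Neurog2, Hoxa9 and Cdx2 were among the 9 members with K4+K27 in c34 and GV oocytes. The 5 K27-imprinted genes with K27 only in c34 had it in GV oocytes too, and Etv6 and Inhbb, K4+K27 in c34, were K27 only there. The 4 maternally methylated genes with K36 only in c34 were K36 only in GV oocytes, where Peg3, Zrsr1 and Nnat, K4+K36 in c34, were K36 only as well.

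**Figure D5:**
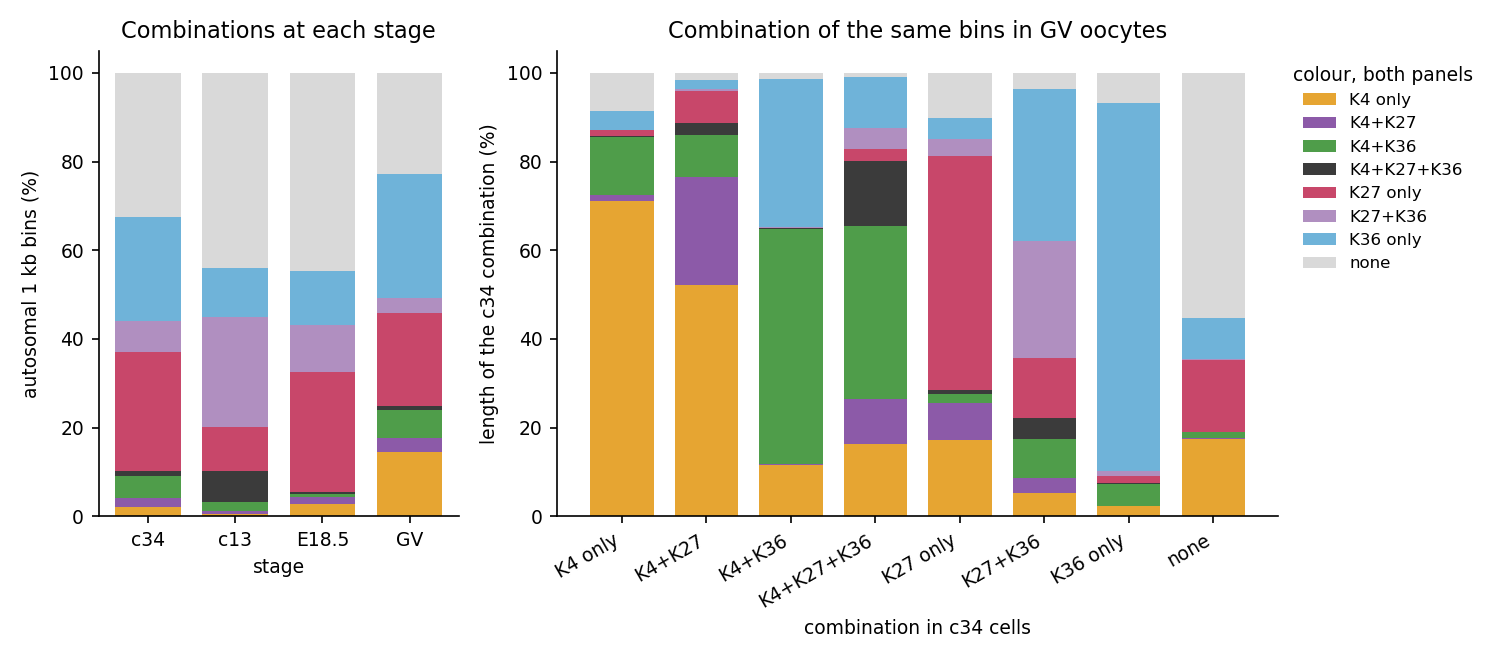
Left, share of autosomal 1 kb bins (y axis, %) in the 8 mark combinations in c34 cells, c13 cells, E18.5 oocytes and GV oocytes. Right, each c34 combination (x axis) split by the combination of the same bins in GV oocytes (y axis, % of its c34 length). K27+K36 and all 3 marks are smaller in c34 (6.94% and 1.13%) than in c13 (24.8% and 7.10%), and 83.0% of the K36 only length is K36 only in GV oocytes too, against 28.0% of all bins.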

How the data were processed

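The deposited files were 13 peak lists, 1 per stage and mark, which give chromosome, start and end per the file headers and carry no other score or value; these positions in bp were the unit used. Per the submitters' processing notes, peak callers were among the tools, namely MACS2 2.1.1 and SICER 0.0.41, beside the aligner Bowtie2 2.3.4.1, the trimmers cutadapt 1.9.1 and Trim Galore 0.4.1, and Picard 2.18.23; the builds named were mm10 and GRCm38.p3. The caller and threshold of each list, and whether libraries were pooled or set against input, were not given in the sources used here. Depth was unknown, so no interval or limit was computed.

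Peaks were read with a start counted from 0 and an inclusive end. A 1 kb bin of autosomes 1 to 19 held a mark when a peak covered at least 50% of it. Genes were those of RefSeq on GRCm38.p6. The promoter table gave a start for 16456 of 20661 protein-coding autosomal genes (79.6%) and for 0 on chromosome 18, and the listed start nearest the annotated 5′ end was used. For 1646 genes (10.0%) it lay more than 1 kb inside the annotated gene. A mark was called at a start from a peak within 1 kb, and a body took the combination of most of its bins. Start densities covered the 18 autosomes with starts.

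Printed promoters were the first list member, in list order, of 6 combinations, restricted after the values were seen to starts within 1 kb of the annotated end. Named genes were the first 8 of a list in each combination, the first 4 of a family by symbol, the 3 longest runs and the 5 longest genes, of which 1 is not reported here; other names, with single peak widths and calls at other stages, were chosen after their values were seen. The members and lists were chosen with earlier results of these data known. With 1 list per mark and stage no test was run. The classification was tested on simulated peaks. Computation used pandas 2.3.3 and numpy 2.4.6 under Python 3.11.15, and plots matplotlib 3.10.9.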

Additional observations from a re-analysis of the deposited data

How the results depend on the processing

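No paired analysis was possible because each mark and stage had 1 list, and no replicate could be left out. Of 56 values for bins under 7 alternatives, 54 stayed within 1.5 times, and the others were 15366 bins with all 3 marks when peaks below the median width of their list were left out, against 27779, and 516095 unmarked bins when bins in none of the 13 lists were left out, against 800757. Some of the 54 could not move. A call from any overlap of 1 bp gave the same 8 values, since peak edges lay on the grid of the bins. Leaving out bins in none of the 13 lists cannot change the 7 counts of marked bins. Of 56 counts of gene starts under 7 alternatives, 42 stayed within 1.5 times. Without peaks below the median width, K4+K27 held 848 starts, all 3 marks 627, K36 only 2461 and none 3205, since fewer peaks were left. All 3 marks held 2520 starts with peaks up to 5 kb away, and 2475 when genes without a listed start were added by either end, an alternative chosen after seeing the data. Among the 4597 genes with no other gene within 5 kb, K4 only held 315 starts, K4+K27 468, K4+K36 895, all 3 marks 263, K27 only 881, K27+K36 215, K36 only 290 and none 1270; the share of K4+K36 was 19.5%, against 38.2% of all genes, and the cause was not tested. Among the 9575 genes of 20 kb or more, K4 only held 17 bodies, K4+K27 53, K4+K36 315, all 3 marks 67, K27 only 2083, K27+K36 1113, K36 only 4985 and none 942. The shares moved too, to 52.1% for K36 only, against 36.8% of all genes, and to 0.178% for K4 only, against 1.14%, and the cause was not tested. Unknown depth limits every comparison of list lengths.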

Other observations

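The X chromosome of c34 cells, which was left out of the autosomal shares, carried fewer marks than any autosome. Unmarked bins made up 70.9% of it, against 18.1% to 43.5% of the single autosomes, and K27 only 9.18%, against 20.4% to 34.1%. K4+K36 took 1.24% of the X chromosome, against 3.03% to 7.28%. Unmarked bins of the X chromosome made up 89.1% in c13 cells, 51.4% in E18.5 oocytes and 46.3% in GV oocytes.

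Genes that do not encode proteins were also sorted by the combination of most of their bins. Of 391 transfer RNA genes, 262 (67.0%) lay mostly in bins of a combination with K4. These were spread over K4+K27 (84), K4 only (82), K4+K36 (77) and all 3 marks (19). The same call gave 16.9% of protein-coding genes, but K4 lay at 64.9% of their listed starts. K4 peaks had a median width of 5 kb, so the call depends on gene length and 16.9% is not a like measure. Of 12408 long non-coding RNA genes, 4891 (39.4%) lay mostly in K27 only, against 19.9% of protein-coding genes.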
